A study of Mus musculus with 18 samples.

Results

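The genes of the DNA replication and cell-cycle machinery were examined in mouse embryonic stem cells (ESCs) with and without the transcription factor gene Zeb2, over the first days of neural differentiation. Members were chosen by name from the deposited expression table: protein-coding genes whose symbol was that of an MCM, ORC, GINS or RFC subunit, or a subunit of DNA polymerase alpha, delta or epsilon. Numbered Cdc genes, cyclins A, B and E, numbered CDKs, CDK inhibitors of the Cdkn1 and Cdkn2 groups, E2F genes and ribonucleotide reductase subunits were taken as well. The rule found 79 of the 10965 genes in the table and used no expression value. Ccnb1ip1 and Cdkn2aip came in through the first letters of their symbols, and neither encodes a cyclin or a CDK inhibitor. A further 19 mouse genes that match the rule by name, among them Cdc6, Ccnb1, Ccne2, Cdk6, Pold1 and Pole, were not analysed here.

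DNA replication starts where the origin recognition complex (ORC) loads the ring of Mcm2 to Mcm7, which Cdc45 and the GINS complex turn into an active helicase under the control of Cdc7 and the CDKs. Cyclins E and A with Cdk2 drive S phase, cyclins A and B with Cdk1 drive mitosis. The CDC25 phosphatases switch these kinases on, the inhibitors of the Cdkn1 and Cdkn2 groups hold them back, and the E2F factors control transcription of many of the genes concerned. Mouse ESCs are known for a short G1 phase and for high levels of replication genes, and G1 lengthens as the cells leave pluripotency.

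Polyadenylated-RNA sequencing libraries came from 6 groups of 3, and the replicates of a group were independent experiments. The strain label is CD1 throughout, the control cells (Ctrl) are Zeb2 fl/fl, and the knockout cells (Zeb2 KO, here KO) are Zeb2 -/- and were made from floxed ESCs by a brief Cre transfection. On day 0 (d0) the cells were ESCs in 2i + LIF, on d4 they were embryoid bodies that had grown in medium with 15% serum, and on d6 they had spent the days since d4 in N2B27 with 500 nM retinoic acid. Which derived line gave each library is not stated in the sources used here, so the p-values describe the spread between experiments and not between independently derived KO lines.

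Recovered read totals ran from 9622622 to 15617675 per library (median 12131165), and a member had a median of 1311 reads in a library, with at least 100 reads in every library for 74 of the 79. Zeb2 itself was at 7.53 to 7.81 TPM (a level corrected for gene length and library size) in Ctrl at d6 and at 0.594 to 0.733 TPM in KO. At d6 the marker sums of some cell types differed between the genotypes and those of others overlapped. The list for naive pluripotency held 13 genes, among them Sox2 and also Nanog and Pou5f1, which the paper treats apart from the naive genes. At d6 these 13 genes summed to 1011 to 1166 TPM in Ctrl and 1802 to 2066 TPM in KO. None of the 13 had a mean below 1 TPM in either group. At d0 the sums were 7167 to 7527 TPM in Ctrl and 6854 to 6974 TPM in KO, so both genotypes fell. Such a sum follows its most abundant genes and does not show which of the 13 stayed higher in KO. The paper reports that the naive genes Klf4 and Zfp42 went down in both genotypes, while Nanog and Pou5f1 fell incompletely or not in KO. The d6 sum for 8 neural progenitor genes was 412 to 522 TPM in Ctrl and 99.7 to 136 TPM in KO, with 4 of the 8 below 1 TPM in KO. Sums for 9 endoderm genes were 188 to 317 TPM against 41.5 to 68.8 TPM, for 5 mesoderm genes 154 to 210 TPM against 17.1 to 23.3 TPM, for 7 neuron genes 261 to 295 TPM against 100.2 to 119 TPM, and for 6 trophectoderm genes 1201 to 1846 TPM against 1091 to 2132 TPM. The trophectoderm sums overlapped, as did those for 4 fibroblast genes (33.67 to 41.45 TPM in Ctrl and 37.58 to 49.56 TPM in KO). The neuron sum was 268 to 298 TPM in Ctrl and 147 to 171 TPM in KO already at d0. At d4 it overlapped, with 247 to 264 TPM in Ctrl and 256 to 286.5 TPM in KO. In Ctrl the neuron sum thus did not rise from d0 to d6. The part of this cell composition in the results below was not tested, and in bulk RNA fewer cells of a type and less RNA per cell cannot be told apart.

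The promoters of the members shared short sequence features that the choice by name did not use. RefSeq promoters (GRCm38.p6, 250 bases before to 50 after the start) were matched for 67 of the 79 members, with 78 starts. An E2F core, TTCCCGC or TTGGCGC on either strand, was in 30 of the 78 (38.5%), beside 12.1% of the 9167 promoters of genes in the table and 6.81% of all 32851 promoters. It was in 57.1% of the 35 promoters of replication members (MCM, ORC, Cdc45, Cdc7, GINS, RFC, polymerases and ribonucleotide reductase) and in 23.3% of the 43 others. The CCAAT box CCAAT was in 56.4% of member promoters, beside 37.4% of those of the table and 37.4% of all, and in 3 member promoters an E2F match shared bases with a CCAAT match. The cell-cycle homology element (CHR) TTTGAA was in 19.2%, 11.2% and 17.9% of these sets. The E-box CACCTG, a sequence that Zeb2 is known to bind, was in 11.5% of member promoters, 18.9% of those of the table and 20.2% of all.

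The windows of 5 members that were called different in KO at d4 or d6 are printed as examples, in the direction of the gene, with E2F cores and CHR elements of either strand in capitals. Gins3 and E2f8 hold both elements in these bases, Mcm6 and Pole3 only E2F cores, and Cdk1 only CHR elements.
Mcm6 (chr1:128359706-128359825, - strand, bases 120 to 1 before the start): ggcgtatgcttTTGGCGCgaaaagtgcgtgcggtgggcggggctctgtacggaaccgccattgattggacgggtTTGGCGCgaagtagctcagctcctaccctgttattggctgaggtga
Gins3 (chr8:95633439-95633558, + strand, bases 120 to 1 before the start): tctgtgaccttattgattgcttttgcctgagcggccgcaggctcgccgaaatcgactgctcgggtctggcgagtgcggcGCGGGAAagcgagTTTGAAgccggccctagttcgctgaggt
Pole3 (chr4:62525015-62525134, - strand, bases 120 to 1 before the start): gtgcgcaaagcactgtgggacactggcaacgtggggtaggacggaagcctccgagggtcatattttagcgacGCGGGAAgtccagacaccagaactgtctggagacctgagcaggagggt
E2f8 (chr7:48881597-48881716, - strand, bases 120 to 1 before the start): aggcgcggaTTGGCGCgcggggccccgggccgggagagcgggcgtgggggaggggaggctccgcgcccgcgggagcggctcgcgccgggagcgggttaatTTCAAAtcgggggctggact
Cdk1 (chr10:69352913-69353032, - strand, bases 120 to 1 before the start): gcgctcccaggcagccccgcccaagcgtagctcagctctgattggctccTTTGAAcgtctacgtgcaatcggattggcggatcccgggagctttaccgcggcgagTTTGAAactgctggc

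Mcm6, Gins3, Pole3 and E2f8 were lower and Cdk1 was higher in KO on at least 1 of these days, as given below. Of the promoters of members called only higher in KO at d4 or d6, 4 of 22 held an E2F core and 3 of 22 the E-box, and of those called only lower, 9 of 29 and 2 of 29. These counts are descriptions of letters in a window and say nothing of binding.

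Of the 9 members with an E-box, 6 were called between KO and Ctrl on at least 1 day. Their windows are printed as examples, with the E-box of either strand in capitals, and binding by Zeb2 was not tested.
Cdkn1a (chr17:29093549-29093608, + strand, bases 220 to 161 before the start): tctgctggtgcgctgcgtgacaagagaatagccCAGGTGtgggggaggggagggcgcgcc
Cdc34 (chr10:79681995-79682054, + strand, bases 200 to 141 before the start): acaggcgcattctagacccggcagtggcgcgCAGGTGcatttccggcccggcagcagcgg
Ccna1 (chr3:55055216-55055275, - strand, bases 220 to 161 before the start): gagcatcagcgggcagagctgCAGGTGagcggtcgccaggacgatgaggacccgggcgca
Orc6 (chr8:85299492-85299551, + strand, bases 140 to 81 before the start): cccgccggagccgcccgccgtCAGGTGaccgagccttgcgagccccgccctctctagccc
Cdc14b (chr13:64275149-64275208, - strand, bases 220 to 161 before the start): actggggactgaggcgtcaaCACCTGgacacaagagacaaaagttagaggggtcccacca
E2f2 (chr4:136180722-136180781, + strand, bases 60 to 1 before the start): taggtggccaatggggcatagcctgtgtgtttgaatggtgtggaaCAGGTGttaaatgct

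Cdkn1a, Cdc14b and E2f2 each have 2 starts in RefSeq, and for each gene the E-box was near 1 of them. In KO, Cdkn1a was higher at d4, Cdc34 at d4 and d6, Orc6 at d0, Cdc14b on all 3 days, and Ccna1 at d0 but lower at d4, while E2f2 was lower at d6. Cdc5l, Pold3 and Rfc1, the other members with an E-box, were called on no day. Of all 79 members only 16 were called on no day, so a call does not set the members with an E-box apart.

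Members spanned a wide range of levels. On the TPM scale, the mean levels of Mcm2 to Mcm7 lay between 157 and 1150 TPM over the 6 groups, with Mcm2 averaging 976 to 1138 TPM at d0 and d4 in both genotypes. Ccna1, the germ cell form of cyclin A, and Cdk14, a CDK-like kinase tied to Wnt signalling, were the members nearest to the floor, with as few as 8 and 5 reads in a library. The plot of all members by library shows each gene against its own mean. Gene positions below are those of GRCm38.

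**Figure D1:**
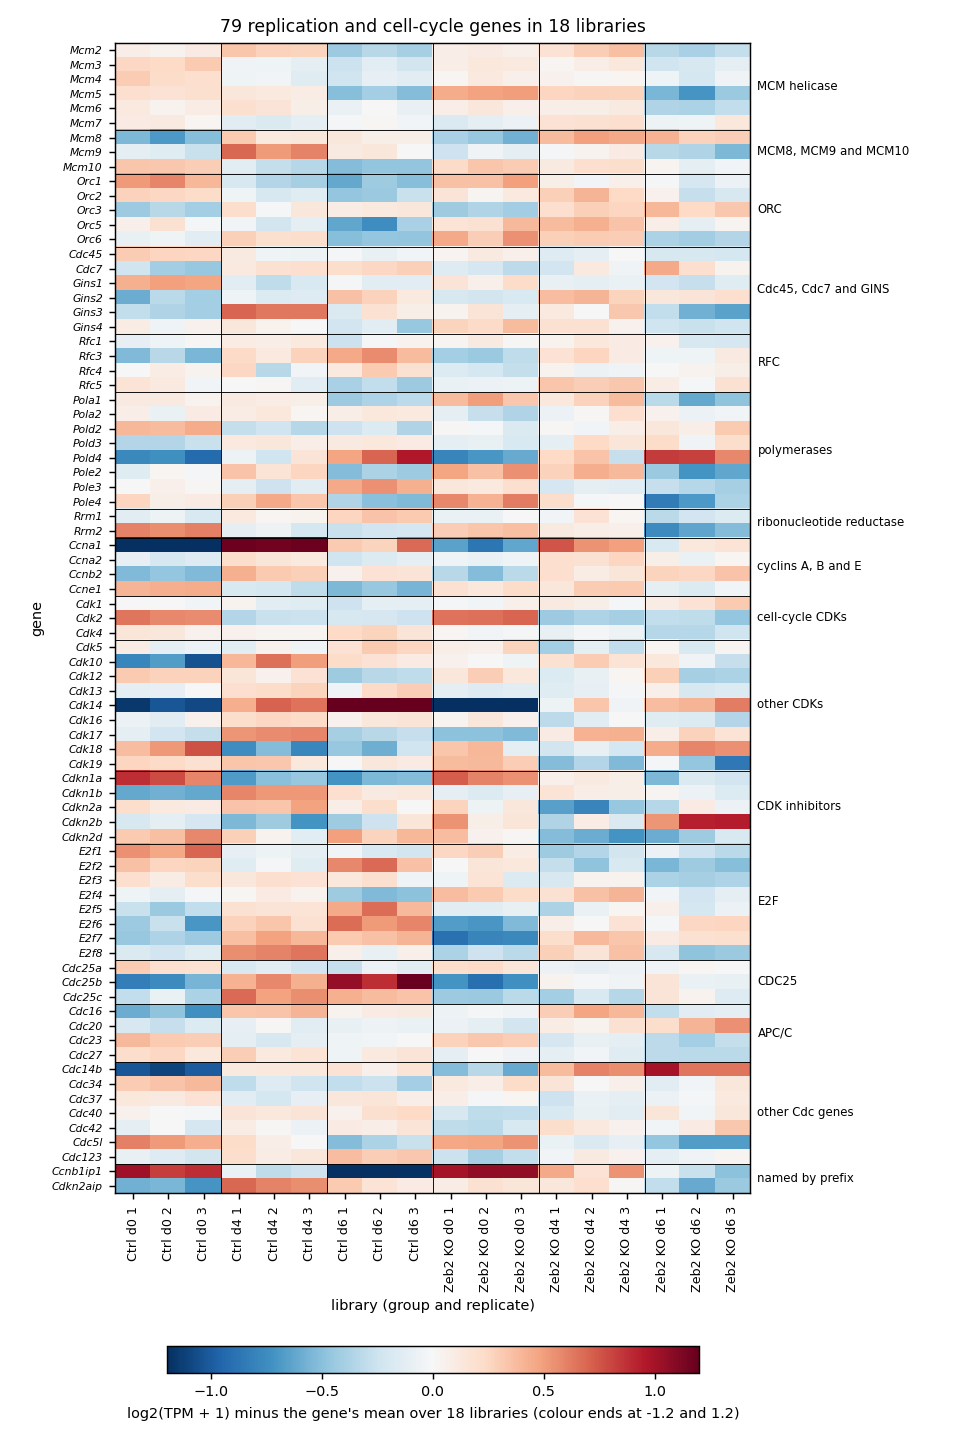
Level of each of the 79 members (vertical axis, grouped by family) in each of the 18 libraries (horizontal axis) as log2(TPM + 1) minus the mean of the gene over all libraries. Red is above and blue below that mean; the deepest blue is at d0 for Cdk14 in both genotypes and for Ccna1 in Ctrl, and at d6 for Ccnb1ip1 in Ctrl.

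In control cells, somewhat more members fell than rose over the 6 days. From d0 to d6, 25 members were higher and 31 lower (adjusted p below 0.01, limma on log2(TPM + 1) with Benjamini-Hochberg adjustment over all 10965 genes, as for every such p here), a share of 70.9% beside 71.5% of all genes. Among all genes 45.8% were higher and 25.8% lower, and the median log2 fold change was -0.03 for the members and 0.26 for all genes. From d0 to d4, 31 members were higher and 23 lower (68.4% beside 67.4% of all genes, where 45.1% were higher and 22.3% lower). From d4 to d6, 10 were higher and 28 lower (48.1% beside 44.1%, where 22.6% were higher and 21.5% lower). Of the 6 helicase genes Mcm2 to Mcm7, 5 were lower at d6 than at d0 in Ctrl (range of log2 fold changes -0.67 to -0.09), and of the 5 ORC genes 4 were lower, Orc3 being the exception (0.51). The Mcm6 call (-0.14, adjusted p = 0.00903) was the least secure of these. It was lost in 18 of the 28 alternatives, with 0.02 under quantile normalization (adjusted p = 0.742), -0.05 with neighbour medians subtracted (adjusted p = 0.506) and adjusted p from 0.0101 to 0.0425 in the 12 fits without 1 library that lost it.

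In KO cells, 23 members were higher and 35 lower at d6 than at d0 (73.4% beside 67.7% of all genes, where 40.3% were higher and 27.4% lower), with a median of -0.18 beside 0.17. From d0 to d4, 24 were higher and 18 lower (53.2% beside 56.7%, where 35.8% were higher and 20.9% lower), and from d4 to d6, 7 were higher and 32 lower (49.4% beside 41.4%, where 21.5% were higher and 19.9% lower). The 7 became 4 without KO d4 replicate 1 or 3 or KO d6 replicate 1 or 2. With libraries rescaled by the median ratio of all genes, the d4 against d0 counts became 19 higher and 40 lower in Ctrl and 15 higher and 34 lower in KO, so the balance of these counts depends on the scaling. The members with the largest rises in KO were Cdk14, Pold4, the small subunit of polymerase delta, and Cdc14b, a phosphatase, and in Ctrl they were Cdk14, Ccna1 and Cdc25b.

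Cdk14 (ENSMUSG00000028926) was barely present at d0 and rose in both genotypes. It measured 0.359, 0.488 and 0.435 TPM at d0, 3.11, 3.97 and 3.75 TPM at d4 and 7.06, 6.39 and 6.76 TPM at d6 in Ctrl. In the KO, Cdk14 was at 0.179, 0.174 and 0.0907 TPM at d0, 1.91, 2.82 and 1.94 TPM at d4 and 2.92, 3.03 and 3.65 TPM at d6. The change from d0 to d6 was 2.44 ± 0.14, adjusted p = 9.24e-11 in Ctrl and 1.87 ± 0.14, adjusted p = 2.81e-09 in KO (log2 fold change ± SE, as in all such pairs here). Each d6 library was above every d0 library of its genotype, and at d6 the KO libraries were all below those of Ctrl (-0.88 ± 0.14, adjusted p = 3.62e-05), as at d4 (-0.52 ± 0.14, adjusted p = 0.00399). On the log2(TPM + 1) scale such low genes are understated.

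Pold4 rose in both genotypes. Ctrl libraries held 13.7, 14.1 and 12.2 TPM at d0, 22.9, 20.2 and 26.9 TPM at d4 and 33.8, 39.6 and 47.9 TPM at d6. For KO the Pold4 values were 13.4, 14.4 and 15.5 TPM at d0, 28.5, 30.8 and 19.6 TPM at d4 and 43.6, 43.1 and 36.2 TPM at d6. The log2 change from d0 to d6 was 1.52 ± 0.16, adjusted p = 1.49e-07 in Ctrl and 1.44 ± 0.16, adjusted p = 3.21e-07 in KO, the difference between these changes being -0.08 (adjusted p = 0.774). Cdc5l, a splicing factor related to the yeast Cdc5 gene, was among the largest falls. Its Ctrl values were 231, 216 and 205 TPM at d0, 177, 160.1 and 151 TPM at d4 and 105, 116 and 126 TPM at d6. In KO they were 209.9, 211 and 220.5 TPM at d0, 143, 134 and 141 TPM at d4 and 109.6, 94.9 and 94.6 TPM at d6. Cdc5l fell by d6 in Ctrl (-0.91 ± 0.08, adjusted p = 1.39e-08) and in KO (-1.10 ± 0.08, adjusted p = 1.46e-09), with no d6 library reaching a d0 library.

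The course over the 3 days differed between the genotypes for 44 of the 79 members (F test of both interaction terms, limma, adjusted p below 0.01), which is 55.7% beside 48.7% of all genes. Relative to Ctrl, the change from d0 to d4 was greater (a larger rise or smaller fall) in 14 members and less in 16, 38.0% beside 36.1% of all genes (13.6% greater and 22.5% less). From d0 to d6 it was greater in 12 and less in 23, 44.3% beside 43.7% (17.8% greater and 25.9% less), and from d4 to d6 greater in 5 and less in 9, 17.7% beside 13.4% (7.1% greater and 6.29% less). The d0 to d6 balance turned with the scaling: 22 greater and 17 less with median-ratio scaling, 16 and 10 with the medians of neighbouring genes subtracted, 18 and 18 with quantile normalization, and 17 and 21 with voom on recovered reads. The plot of the d0 to d6 changes in both genotypes shows Ccnb1ip1, Ccna1, Cdc25b, Cdk18, Pold2 and Pole3 among those far from the diagonal.

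**Figure D2:**
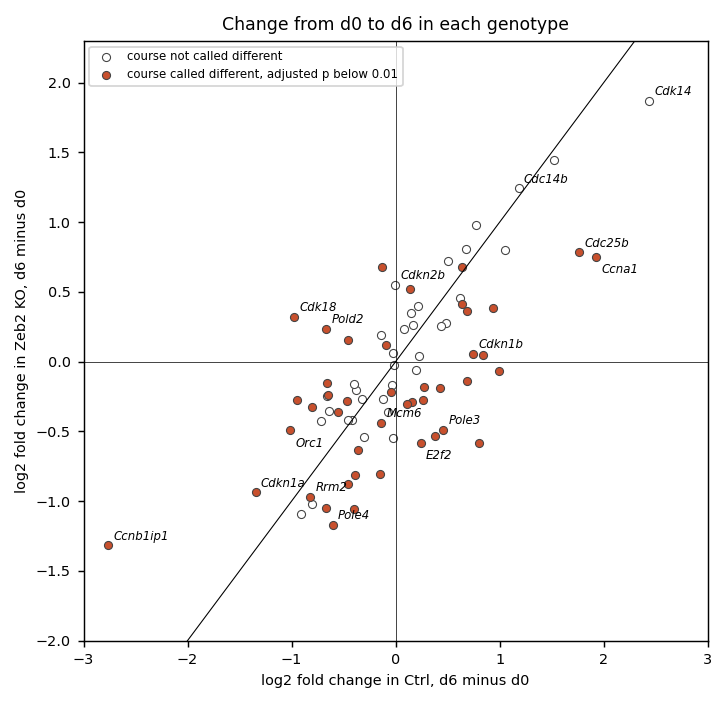
Log2 fold change from d0 to d6 in Ctrl (horizontal) and in Zeb2 KO (vertical) for the 79 members, with the diagonal of equal change; filled points are the 44 members whose course was called different. Ccnb1ip1 lies at -2.76 in Ctrl and -1.32 in KO, and Pole3 at 0.46 and -0.49.

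KO was next compared with Ctrl on the same day, before and during differentiation. As the derived line behind each library is not stated, loss of Zeb2 and differences between lines cannot be told apart in these comparisons. At d0, 13 members were higher and 12 lower in KO, 31.6% beside 27.0% of all genes (10.6% higher and 16.4% lower), and the 12 lower calls became 7 without Ctrl replicate 1 or without KO replicate 3 of that day. At d4, 17 were higher and 17 lower, 43.0% beside 45.5% of all genes (12.7% higher and 32.7% lower). At d6, 18 were higher and 25 lower, 54.4% beside 52.3% of all genes (17.9% higher and 34.3% lower). The KO and Ctrl libraries did not overlap for 47, 55 and 54 members at d0, d4 and d6 (59.5%, 69.6% and 68.4%, beside 51.5%, 65.7% and 63.7% of all genes). The shares called were thus near those of the table, and the balance of higher to lower calls among members was not tested against it. Medians were -0.02, 0.00 and -0.12 for the members and -0.07, -0.16 and -0.14 for all genes.

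The median of all genes was itself below 0 at d4 and d6, so the balance of higher and lower calls moves with the scaling. Rescaled by the median ratio, the counts were 14 higher and 6 lower at d0, 30 and 7 at d4, and 26 and 16 at d6. With quantile normalization they were 12 and 8, 21 and 14, and 20 and 24. Changes are given below as deposited, and a log2 fold change between -0.16 and 0 at d4, or between -0.14 and 0 at d6, is at or above the middle of the table.

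**Figure D3:**
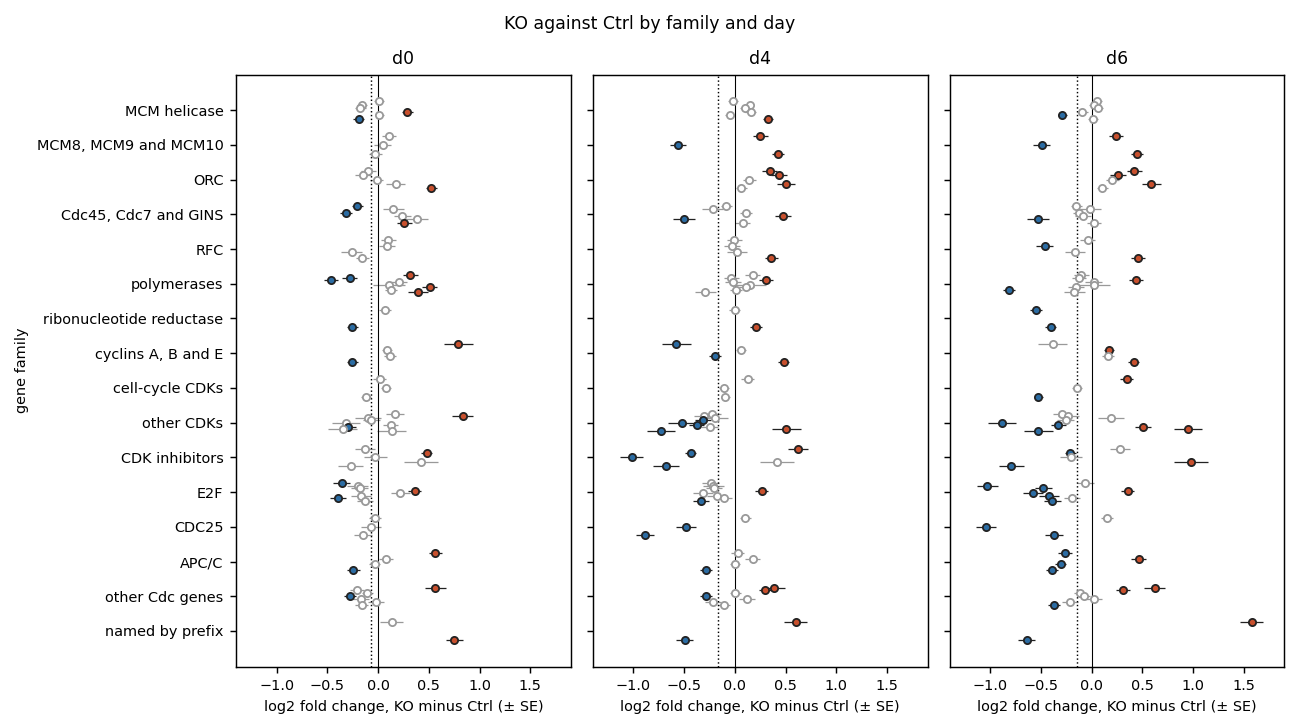
Log2 fold change between KO and Ctrl (horizontal axis, with standard error bars) of each member at d0, d4 and d6 (panels), by family (vertical axis). Filled points are called (orange-red higher, blue lower), the solid line is 0 and the dotted line the median of all genes; 2 CDC25 and 5 E2F members are filled in blue at d6, while 3 ORC members are filled in orange-red at d4 and at d6.

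Across days, 13 members were higher in KO at both d4 and d6: Mcm8, Mcm10, Orc1, Orc2, Orc5, Rfc5, Pold2, Ccne1, Cdk18, E2f4, Cdc14b, Cdc34 and Ccnb1ip1. Another 12 were lower at both: Mcm9, Gins3, Cdk14, Cdk16, Cdk19, Cdkn1b, Cdkn2d, E2f8, Cdc25b, Cdc25c, Cdc27 and Cdkn2aip. Rrm2 was called in opposite directions on these days, and 16 members, among them Mcm2, Mcm3, Mcm4, Cdc7, Cdk2 and Cdc25a, were not called on any day. Of all genes, 45.5% were called at d4 and 52.3% at d6. The share of all genes with each of these patterns was not computed, so the counts only list members. E2f4 and Cdc14b were higher and Cdc27 lower on all 3 days as deposited. With neighbour medians subtracted, Cdc27 was at -0.09, 0.00 and 0.01 at d0, d4 and d6 and called on none of them, and E2f4 at d0 was at 0.03 and not called.

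At d0 the higher calls sat together on a few chromosomes. Of the 13 members higher in KO, 10 lie on chromosomes 6, 8 and 12: Cdc16, Cdk10, Cdkn2aip, E2f4, Gins4, Mcm5 and Orc6 on chromosome 8, Cdkn1b and Pole4 on 6, and Pole2 on 12. The neighbouring genes within 10 Mb were also higher in KO there, with a median log2 fold change above 0.15 for 10 of these 13 members, 0 of the 12 lower members and 3 of the 54 others. Over whole chromosomes the d0 median of all genes was 0.33 on chromosome 8 and 0.36 on chromosome 12, with 0.08 on chromosome 6 and -0.17 to -0.05 on the rest. By d4 and d6 these 3 chromosomes had medians of -0.24 to -0.15, no longer above the rest. With the neighbour medians subtracted, the d0 counts became 10 higher and 3 lower, and the calls of Mcm5, Orc6, Gins4, Pole2, Pole4, E2f4 and Cdc16 among the higher members were lost. Of the 12 lower calls, 10 were lost as well, those of Mcm7, Cdc45, Gins1, Pola2, Rrm2, Ccne1, Cdk17, E2f1, E2f7 and Cdc27, with values from -0.22 to -0.03. Mcm5 then had a log2 fold change of -0.15 in place of 0.29, and Gins4 one of -0.07 in place of 0.26. Those of Cdk10, Cdkn2aip, Cdkn1b, Ccna1, Pola1 and Cdc14b were not lost.

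**Figure D4:**
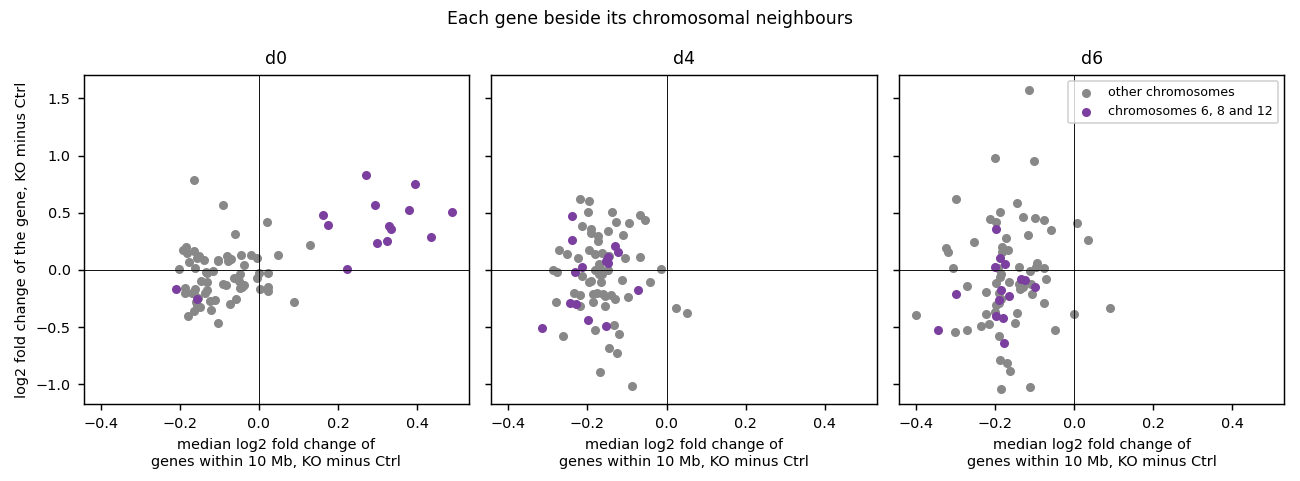
Log2 fold change of each member between KO and Ctrl (vertical) against the median log2 fold change of the genes within 10 Mb (horizontal) at d0, d4 and d6, with members on chromosomes 6, 8 and 12 in purple. At d0 the purple points reach neighbour medians of 0.49 and are mostly above 0 on both axes; at d4 and d6 they mix with the others.

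Several origin recognition genes were higher in KO during differentiation. Of 5 ORC genes, Orc1, Orc2 and Orc5 were higher at d4 and d6, beside 12.7% and 17.9% of all genes higher on these days. Orc6 was higher at d0, and none was called lower on any day. The Orc2 call at d6 was lost in 16 of the 28 alternatives. Of Mcm2 to Mcm7, only Mcm7 was called at d4 (higher, 0.33) and only Mcm6 at d6 (lower), with Mcm5 higher and Mcm7 lower at d0. Mcm8 and Mcm10 were higher and Mcm9 lower at d4 and d6, Mcm10 being needed to start the helicase and Mcm8 and Mcm9 forming a complex for repair of breaks. Orc1 (ENSMUSG00000028587, chr4:108579423-108614833) encodes the subunit whose level is tied to the cell cycle. Orc1 was at 79.03, 83.2 and 73.03 TPM at d0, 48.1, 43.2 and 41.8 TPM at d4 and 35.8, 40.9 and 38.5 TPM at d6 in Ctrl. In the KO, Orc1 was at 70.7, 70.7 and 77.98 TPM at d0, 58.01, 54.00 and 57.5 TPM at d4 and 54.6, 47.9 and 52.5 TPM at d6. Both genotypes lost Orc1 with time, but at d4 and d6 every KO library was above every Ctrl library (0.34 ± 0.07, adjusted p = 0.00102 and 0.42 ± 0.07, adjusted p = 0.000142), and the course differed (adjusted p = 0.000975). Orc5, an ATP-binding subunit, measured 41.7, 45.6 and 39.7 TPM at d0, 39.2, 34.3 and 37.04 TPM at d4 and 25.6, 23.6 and 30.4 TPM at d6 in Ctrl. In the KO, Orc5 measured 45.1, 45.7 and 52.7 TPM at d0, 52.5, 54.2 and 51.1 TPM at d4 and 42.5, 37.01 and 41.1 TPM at d6. It too was above all Ctrl libraries at d4 (0.50 ± 0.09, adjusted p = 0.000263) and d6 (0.59 ± 0.09, adjusted p = 4.4e-05).

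Most helicase genes were not called between genotypes at d4 or d6. Mcm2 was at 982, 954 and 991 TPM at d0, 1171, 1126 and 1116 TPM at d4 and 687, 736 and 702 TPM at d6 in Ctrl. In the KO, Mcm2 was at 980.1, 996 and 967 TPM at d0, 1049, 1139 and 1191 TPM at d4 and 737, 710.0 and 758 TPM at d6. The libraries of both genotypes overlapped on every day, with log2 differences of 0.01, -0.02 and 0.05 (adjusted p from 0.374 to 0.925), and Mcm2 fell in both from d0 to d6 (-0.46 and -0.42). The fall in KO was -0.14 with neighbour medians subtracted and did not pass (adjusted p = 0.0308). Mcm6 was at 385, 365 and 376 TPM at d0, 404, 395 and 372 TPM at d4 and 336, 352 and 334 TPM at d6 in Ctrl. In the KO, Mcm6 was at 375, 389 and 369 TPM at d0, 375, 372 and 381 TPM at d4 and 276, 271 and 289 TPM at d6. Only at d6 did the groups separate, KO being lower (-0.29 ± 0.04, adjusted p = 3.08e-05), a call that the median-ratio scaling lost (-0.13, adjusted p = 0.03).

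Among the factors that turn the helicase on, Cdc45 and Gins1 were lower in KO at d0 and not called later, while Gins3 was lower at d4 (-0.51) and d6 (-0.53) and Gins2 higher at d4 (0.47). Cdc45 encodes the helicase cofactor. Cdc45 was at 141, 136 and 136 TPM at d0, 123, 109.5 and 109 TPM at d4 and 112, 107 and 111 TPM at d6 in Ctrl. In the KO, Cdc45 was at 116, 123 and 118 TPM at d0, 102, 105 and 114 TPM at d4 and 99.2, 99.5 and 97.9 TPM at d6. All KO libraries were lower at d0 (-0.21 ± 0.05, adjusted p = 0.00586) and at d6, where the test did not pass (-0.15 ± 0.05, adjusted p = 0.0205). Gins1 encodes a GINS subunit. Gins1 was at 104, 109 and 108 TPM at d0, 70.6, 62.1 and 68.01 TPM at d4 and 76.2, 70.4 and 70.4 TPM at d6 in Ctrl. In the KO, Gins1 was at 86.1, 80.3 and 89.9 TPM at d0, 72.4, 71.4 and 72.9 TPM at d4 and 65.7, 63.5 and 69.7 TPM at d6. It was lower at d0 (-0.32 ± 0.06, adjusted p = 0.000469), slightly above Ctrl at d4 (0.11 ± 0.06, adjusted p = 0.121) and below at d6 (-0.12 ± 0.06, adjusted p = 0.0817), and its course differed (adjusted p = 0.00122).

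Calls differed between the analysed subunits of a polymerase, and Pold1 and Pole were not among those analysed. Pold2 was lower in KO at d0 and higher at d4 and d6, while Pole3 was lower at d6. Of 8 polymerase members 3 were higher and 2 lower at d0, 1 higher at d4, and 1 higher and 1 lower at d6. Of all genes, 27.0%, 45.5% and 52.3% were called on these days. The d0 calls of Pole2, Pole4 and Pola2 were lost with neighbour medians subtracted. Pold2 (ENSMUSG00000020471, chr11:5872180-5878292) encodes the regulatory subunit of polymerase delta. Pold2 was at 199, 195 and 205 TPM at d0, 123, 127 and 119 TPM at d4 and 126, 134 and 117 TPM at d6 in Ctrl. In the KO, Pold2 was at 152, 148 and 134 TPM at d0, 152, 147 and 159 TPM at d4 and 165, 159 and 188 TPM at d6. KO libraries lay below all of Ctrl at d0 (-0.47 ± 0.07, adjusted p = 5.81e-05) and above all of them at d4 (0.31 ± 0.07, adjusted p = 0.00107) and d6 (0.44 ± 0.07, adjusted p = 3.82e-05). Pold2 fell from d0 to d6 in Ctrl (-0.67), and the change in KO was 0.24 (adjusted p = 0.00502). That KO call was lost with median-ratio scaling (0.06, adjusted p = 0.473), with neighbour medians subtracted (0.13, adjusted p = 0.114), with only the groups compared (adjusted p = 0.0383), and without KO d0 replicate 3 (0.18, adjusted p = 0.0341) or KO d6 replicate 3 (0.17, adjusted p = 0.0347). Pole3 (ENSMUSG00000028394, chr4:62522649-62525068) encodes a histone-fold subunit of polymerase epsilon that is also part of a chromatin remodeller. Pole3 was at 49.3, 51.6 and 50.1 TPM at d0, 45.9, 41.5 and 45.1 TPM at d4 and 68.1, 73.00 and 67.01 TPM at d6 in Ctrl. In the KO, Pole3 was at 54.7, 53.7 and 56.95 TPM at d0, 42.9, 45.7 and 44.9 TPM at d4 and 40.6, 38.8 and 37.4 TPM at d6. Over the 6 days Ctrl rose (0.46) and KO fell (-0.49), so that the d6 difference was -0.82 ± 0.06, adjusted p = 5e-09, a KO mean of 56.2% of Ctrl. With median-ratio scaling the rise in Ctrl became 0.16 and did not pass (adjusted p = 0.0133).

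Its partner Pole4 was at 68.3, 60.1 and 61.2 TPM at d0, 69.9, 78.7 and 71.95 TPM at d4 and 44.2, 40.04 and 39.3 TPM at d6 in Ctrl. In the KO, Pole4 was at 85.5, 76.8 and 87.6 TPM at d0, 66.05, 56.7 and 56.98 TPM at d4 and 31.4, 35.1 and 43.7 TPM at d6. It was higher in KO at d0 (0.39 ± 0.10, adjusted p = 0.0064), lay below Ctrl in every library at d4 without passing the test (-0.29 ± 0.10, adjusted p = 0.023), and overlapped Ctrl at d6. Pola1 encodes the catalytic subunit of polymerase alpha, which makes primers with primase. Pola1 was at 69.1, 68.98 and 66.2 TPM at d0, 69.1, 68.1 and 67.5 TPM at d4 and 47.2, 49.4 and 51.4 TPM at d6 in Ctrl. In the KO, Pola1 was at 83.9, 91.1 and 80.6 TPM at d0, 70.2, 77.8 and 83.9 TPM at d4 and 51.01, 41.6 and 45.6 TPM at d6. Only the d0 difference was called (0.32 ± 0.08, adjusted p = 0.00345). For both genes the fall from d0 to d6 was deeper in KO (-1.17 against -0.61 for Pole4 and -0.88 against -0.46 for Pola1), the difference between these falls being -0.56 (adjusted p = 0.0037) and -0.42 (adjusted p = 0.00353). Of the 4 clamp loader genes, Rfc5 was higher at d4 (0.36) and d6 (0.46) and Rfc3 lower at d6 (-0.46), Rfc1 and Rfc4 being called on no day.

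Ribonucleotide reductase, which makes the deoxynucleotides for replication, was lower in KO at d6 in both subunits. Rrm2 (ENSMUSG00000020649, chr12:24708241-24714146) encodes the subunit whose supply follows S phase. Rrm2 was at 587, 570.4 and 588 TPM at d0, 359.6, 371 and 334 TPM at d4 and 321, 331 and 334 TPM at d6 in Ctrl. In the KO, Rrm2 was at 476, 488 and 497 TPM at d0, 417, 409 and 403 TPM at d4 and 227, 249 and 269.7 TPM at d6. KO was below all Ctrl libraries at d0 (-0.26 ± 0.06, adjusted p = 0.00179), above them at d4 (0.21 ± 0.06, adjusted p = 0.00461) and below them at d6 (-0.40 ± 0.06, adjusted p = 1.07e-05), and the course differed (adjusted p = 1.71e-05). The d4 call was lost with quantile normalization (0.14, adjusted p = 0.0269), and the d0 call with neighbour medians subtracted (-0.10, adjusted p = 0.253). Rrm1, the catalytic subunit, was not called at d0 (0.07) or d4 (-0.00) and was lower at d6 (-0.55 ± 0.06, adjusted p = 6.1e-07).

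Cyclins went separate ways. Ccne1 was higher in KO through differentiation, Ccna2 was modestly higher at d6, and Ccna1 was first higher and then lower. Ccne1 (ENSMUSG00000002068, chr7:38097984-38107534) encodes the cyclin E that activates Cdk2 at S phase entry. Ccne1 was at 253, 258 and 259 TPM at d0, 167, 164 and 154 TPM at d4 and 131, 138 and 129 TPM at d6 in Ctrl. In the KO, Ccne1 was at 215, 207 and 222 TPM at d0, 209.8, 234 and 236 TPM at d4 and 177, 169 and 186 TPM at d6. It was below all Ctrl libraries at d0 (-0.25 ± 0.05, adjusted p = 0.00155) and above all of them at d4 (0.48 ± 0.05, adjusted p = 2.23e-06) and d6 (0.41 ± 0.05, adjusted p = 6.38e-06), a ratio of mean TPM of 1.4 at d4 and 1.34 at d6. From d0 to d6 Ccne1 fell by far more in Ctrl (-0.94) than in KO (-0.28), with a difference of 0.67 (adjusted p = 2.5e-06). The d0 call was lost with neighbour medians subtracted (-0.20, adjusted p = 0.0227). Ccna2 encodes the cyclin A of dividing somatic cells. Ccna2 was at 156, 146 and 149 TPM at d0, 193, 184 and 181 TPM at d4 and 141, 149 and 154 TPM at d6 in Ctrl. In the KO, Ccna2 was at 161, 158 and 161 TPM at d0, 192, 189 and 199.9 TPM at d4 and 175, 157 and 169.7 TPM at d6. Its KO libraries were all above Ctrl at d0, where the test did not pass (0.09 ± 0.05, adjusted p = 0.181), and at d6 (0.18 ± 0.05, adjusted p = 0.00596). Ccna1 was at 0.911, 0.750 and 1.21 TPM at d0, 11.5, 11.3 and 11.5 TPM at d4 and 5.87, 5.65 and 7.83 TPM at d6 in Ctrl. In the KO, Ccna1 was at 2.53, 2.02 and 2.58 TPM at d0, 8.30, 7.05 and 6.77 TPM at d4 and 3.88, 5.04 and 5.18 TPM at d6. KO was above Ctrl at d0 (0.79 ± 0.14, adjusted p = 0.00041), at a level of a few TPM, and below it at d4 (-0.58 ± 0.14, adjusted p = 0.00283) and d6, where the test did not pass (-0.38 ± 0.14, adjusted p = 0.0291). Ccnb2, a mitotic cyclin, was lower at d4 only (-0.20), a call lost with median-ratio scaling (-0.03, adjusted p = 0.771).

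Of the CDKs that run the cell cycle, Cdk1 was higher and Cdk4 lower in KO at d6, and Cdk2 was called on no day. Cdk1 (ENSMUSG00000019942, chr10:69335146-69352938) encodes the kinase of mitosis. Cdk1 was at 191, 189.7 and 187 TPM at d0, 197, 175 and 172 TPM at d4 and 161, 177 and 178 TPM at d6 in Ctrl. In the KO, Cdk1 was at 188, 186 and 199 TPM at d0, 205, 200.2 and 188 TPM at d4 and 203, 215 and 238 TPM at d6. The genotypes overlapped at d0 and d4 and separated at d6 (0.35 ± 0.07, adjusted p = 0.000242). Cdk4 (ENSMUSG00000006728, chr10:127063534-127067920) works with the D-type cyclins in G1. Cdk4 was at 370.2, 368 and 348 TPM at d0, 346, 341 and 343 TPM at d4 and 396, 402 and 373 TPM at d6 in Ctrl. In the KO, Cdk4 was at 341, 327 and 330.5 TPM at d0, 314, 330.0 and 321 TPM at d4 and 263, 264 and 284 TPM at d6. KO libraries were below Ctrl on every day, with -0.12 and -0.09 not passing and -0.53 ± 0.05, adjusted p = 5.11e-08 at d6, a KO mean of 69.3% of Ctrl. Cdk2 was at 324, 309.9 and 308 TPM at d0, 163, 172 and 174 TPM at d4 and 182, 181 and 174 TPM at d6 in Ctrl. In the KO, Cdk2 was at 326, 329.5 and 337 TPM at d0, 154, 161 and 158 TPM at d4 and 169, 168 and 150.1 TPM at d6. Both genotypes fell from d0 to d6 (-0.81 and -1.02), and at d6 KO lay slightly below Ctrl without passing the test (-0.14 ± 0.05, adjusted p = 0.0195).

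Other CDK-named kinases held some of the largest differences. Cdk18, a kinase of the PCTAIRE group, was higher at d4 and d6, Cdk14, Cdk16 and Cdk19 were lower at both, and Cdk10 was higher at d0. Cdk18 was at 17.8, 19.9 and 23.8 TPM at d0, 7.69, 9.15 and 7.45 TPM at d4 and 9.64, 8.71 and 11.3 TPM at d6 in Ctrl. In the KO, Cdk18 was at 17.4, 18.1 and 12.4 TPM at d0, 11.5, 12.7 and 11.6 TPM at d4 and 18.8, 20.8 and 20.3 TPM at d6. It was above all Ctrl libraries at d4 (0.51 ± 0.14, adjusted p = 0.00569) and d6 (0.95 ± 0.14, adjusted p = 2.13e-05). Cdk17 is of the same group. Cdk17 was at 56.1, 51.5 and 49.6 TPM at d0, 88.01, 90.6 and 91.8 TPM at d4 and 45.7, 48.00 and 49.96 TPM at d6 in Ctrl. In the KO, Cdk17 was at 42.9, 42.97 and 41.6 TPM at d0, 65.05, 81.2 and 82.02 TPM at d4 and 64.1, 73.5 and 68.3 TPM at d6. KO was below Ctrl at d0 (-0.29 ± 0.08, adjusted p = 0.00824), below it without passing at d4 (-0.25 ± 0.08, adjusted p = 0.0142) and above it at d6 (0.51 ± 0.08, adjusted p = 4.32e-05). The d0 call was lost with neighbour medians subtracted (-0.22, adjusted p = 0.0513). Cdk10 was at 35.2, 38.1 and 29.1 TPM at d0, 80.9, 97.00 and 86.9 TPM at d4 and 71.6, 69.1 and 65.4 TPM at d6 in Ctrl. In the KO, Cdk10 was at 63.6, 60.97 and 58.9 TPM at d0, 69.3, 75.96 and 68.8 TPM at d4 and 66.7, 59.2 and 50.1 TPM at d6. The d0 difference (0.83 ± 0.10, adjusted p = 1.35e-05) was a KO mean 1.79 times that of Ctrl, and the later ones did not pass. Cdk19 encodes a kinase of the Mediator complex. Cdk19 was at 31.1, 30.4 and 29.4 TPM at d0, 32.8, 32.6 and 28.3 TPM at d4 and 25.7, 28.5 and 27.6 TPM at d6 in Ctrl. In the KO, Cdk19 was at 33.8, 34.2 and 31.9 TPM at d0, 17.6, 20.1 and 17.6 TPM at d4 and 25.3, 18.5 and 13.8 TPM at d6. It was lower at d4 (-0.73 ± 0.14, adjusted p = 0.000439) and at d6 (-0.52 ± 0.14, adjusted p = 0.00444), where the KO libraries spread widely.

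CDK inhibitors moved apart. Cdkn1a was higher while Cdkn2a, Cdkn2d and Cdkn1b were lower in KO at d4, and at d6 Cdkn2b was higher and Cdkn2d and Cdkn1b lower. Cdkn1a (ENSMUSG00000023067, chr17:29090976-29100727) encodes p21. Cdkn1a was at 429, 399 and 348 TPM at d0, 144, 163 and 169 TPM at d4 and 140.2, 159 and 161 TPM at d6 in Ctrl. In the KO, Cdkn1a was at 384, 350.2 and 338 TPM at d0, 241, 249 and 242 TPM at d4 and 159, 204 and 198 TPM at d6. All KO libraries exceeded Ctrl at d4 (0.62 ± 0.10, adjusted p = 5.47e-05), and at d6 the groups overlapped (0.28 ± 0.10, adjusted p = 0.0192). Cdkn1b (ENSMUSG00000003031, chr6:134920401-134925513) encodes p27. Cdkn1b was at 39.7, 40.9 and 39.7 TPM at d0, 92.7, 88.2 and 88.2 TPM at d4 and 70.6, 66.4 and 66.98 TPM at d6 in Ctrl. In the KO, Cdkn1b was at 56.9, 54.6 and 57.4 TPM at d0, 69.05, 64.9 and 64.3 TPM at d4 and 62.8, 58.5 and 54.6 TPM at d6. KO was above all Ctrl libraries at d0 (0.48 ± 0.06, adjusted p = 7.23e-06) and below them at d4 (-0.44 ± 0.06, adjusted p = 8.24e-06) and d6 (-0.21 ± 0.06, adjusted p = 0.00359). From d0 to d6 the log2 change was 0.75 in Ctrl and 0.06 in KO, where it did not pass (adjusted p = 0.375), differing by -0.69 (adjusted p = 2.35e-06). The d6 call did not hold with median-ratio scaling (-0.05, adjusted p = 0.49), and with neighbour medians subtracted the value was 0.09 (adjusted p = 0.311).

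The Cdkn2 genes encode inhibitors of Cdk4 and Cdk6, and Cdkn2a also encodes the p53 activator Arf, whose reads these gene values cannot tell from those of p16. Cdkn2a (ENSMUSG00000044303, chr4:89274471-89294653) was at 91.3, 85.3 and 83.9 TPM at d0, 99.6, 99.02 and 110.5 TPM at d4 and 83.2, 90.8 and 78.9 TPM at d6 in Ctrl. In the KO, Cdkn2a was at 94.8, 75.04 and 86.6 TPM at d0, 49.6, 44.9 and 57.1 TPM at d4 and 61.7, 83.9 and 74.8 TPM at d6. The level in KO was 49% of Ctrl at d4 (-1.02 ± 0.11, adjusted p = 1.51e-06), while the groups overlapped at d0 and d6. Its neighbour Cdkn2b (ENSMUSG00000073802, chr4:89306299-89311039) was at 12.3, 13.1 and 12.3 TPM at d0, 9.52, 10.3 and 8.31 TPM at d4 and 10.4, 11.9 and 15.8 TPM at d6 in Ctrl. In the KO, Cdkn2b was at 21.2, 15.03 and 15.9 TPM at d0, 10.9, 15.2 and 12.6 TPM at d4 and 21.03, 28.2 and 28.4 TPM at d6. All KO libraries were above Ctrl on every day, with only d6 passing the test (0.98 ± 0.17, adjusted p = 8.85e-05). Cdkn2d was at 78.8, 81.4 and 94.9 TPM at d0, 77.5, 65.3 and 57.5 TPM at d4 and 89.6, 76.3 and 83.6 TPM at d6 in Ctrl. In the KO, Cdkn2d was at 82.00, 65.5 and 63.9 TPM at d0, 43.8, 41.4 and 37.99 TPM at d4 and 41.4, 46.9 and 55.4 TPM at d6. It was lower in every KO library at d4 (-0.68 ± 0.13, adjusted p = 0.000272) and d6 (-0.79 ± 0.13, adjusted p = 4.75e-05).

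**Figure D5:**
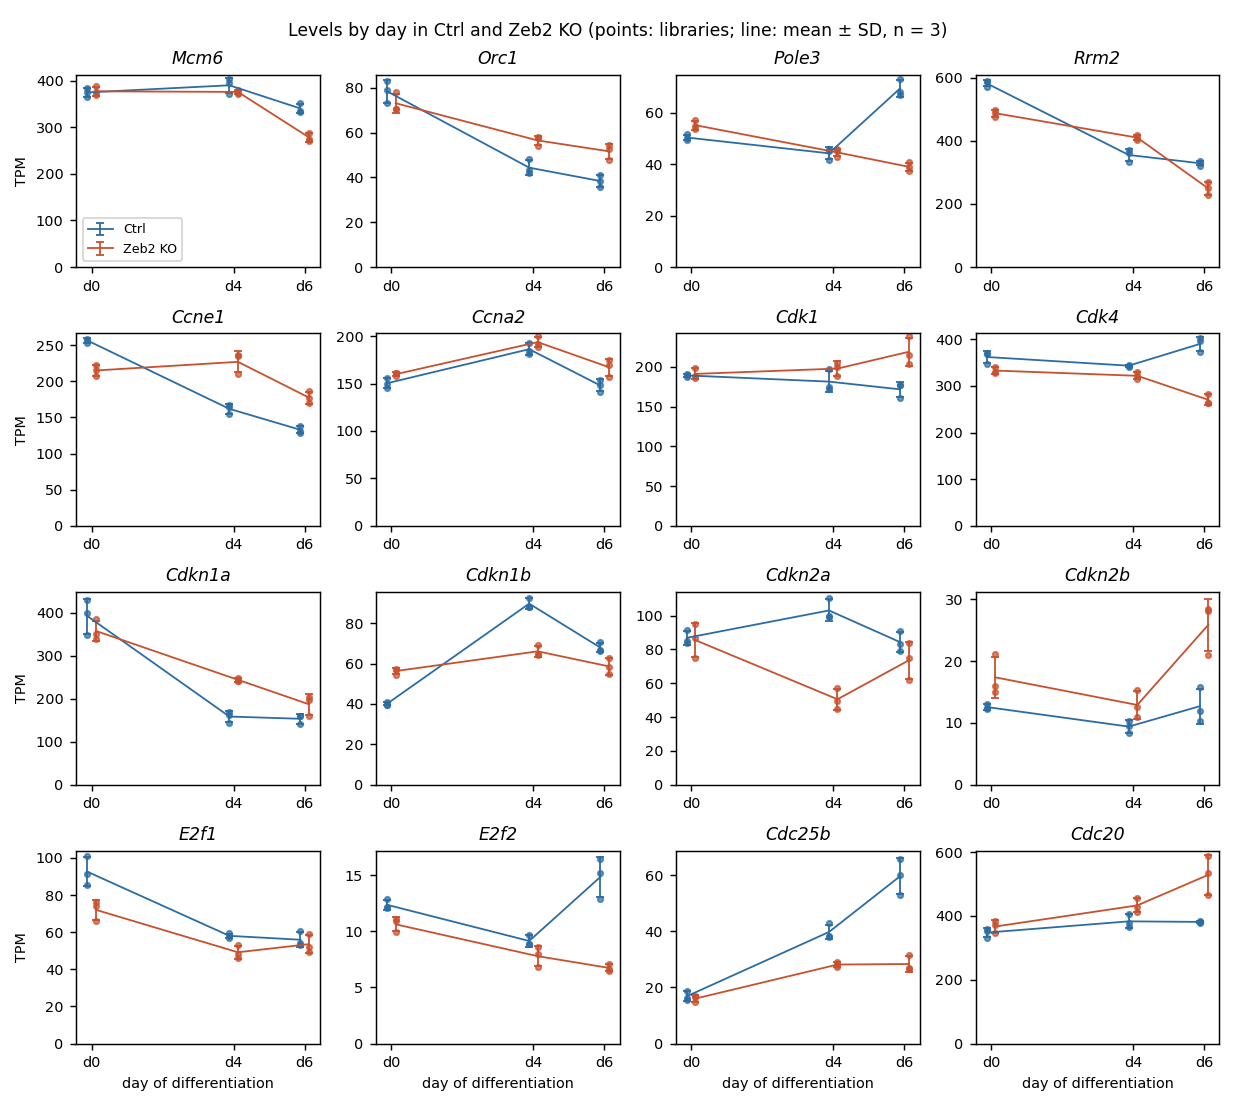
Level in TPM (vertical axes, from 0) of 16 members by day of differentiation (horizontal axes) in Ctrl (blue) and Zeb2 KO (orange-red). Points are libraries and lines join group means with SD bars (n = 3); Ccne1 and Orc1 stay higher in KO at d4 and d6, Cdkn2a dips in KO at d4, and Pole3, Cdk4, E2f2 and Cdc25b end lower in KO at d6.

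Of 8 E2F genes 5 were lower in KO at d6, beside 34.3% of all genes. These fell to 3 with median-ratio scaling, which lost E2f6 and E2f8, and to 2 with neighbour medians subtracted, which lost E2f3, E2f5 and E2f6. E2f2, E2f3, E2f5, E2f6 and E2f8 were lower and E2f4 higher at d6, whereas at d4 only E2f8 (-0.33) and E2f4 were called. E2f2, an activator, was at 12.9, 12.1 and 12.1 TPM at d0, 8.85, 9.72 and 8.86 TPM at d4 and 15.2, 16.4 and 12.9 TPM at d6 in Ctrl. In the KO, E2f2 was at 9.92, 11.1 and 10.9 TPM at d0, 7.96, 6.79 and 8.60 TPM at d4 and 6.46, 7.10 and 6.67 TPM at d6. The groups separated fully on every day and passed at d6 (-1.03 ± 0.11, adjusted p = 4.44e-07), where the KO mean was 45.5% of Ctrl. E2f1, the best known activator, was at 91.1, 85.6 and 101 TPM at d0, 57.9, 59.3 and 56.8 TPM at d4 and 60.5, 54.4 and 52.9 TPM at d6 in Ctrl. In the KO, E2f1 was at 73.9, 76.3 and 65.8 TPM at d0, 45.95, 48.5 and 53.1 TPM at d4 and 59.1, 52.1 and 49.4 TPM at d6. It was lower at d0 (-0.36 ± 0.08, adjusted p = 0.00304), lower without passing at d4 (-0.24 ± 0.08, adjusted p = 0.0238), and overlapped at d6. E2f4, which acts with the pocket proteins to repress cell-cycle genes, was at 475, 455 and 486 TPM at d0, 495, 526 and 505 TPM at d4 and 366, 341 and 349 TPM at d6 in Ctrl. In the KO, E2f4 was at 635, 609.7 and 573 TPM at d0, 559, 628 and 653 TPM at d4 and 481, 419.7 and 456 TPM at d6. Every KO library was above every Ctrl library of its day (0.36 ± 0.06, adjusted p = 0.000346, 0.26 ± 0.06, adjusted p = 0.00227 and 0.36 ± 0.06, adjusted p = 0.000143), and its course did not differ by the test (adjusted p = 0.559). E2f7, a repressor without a pocket protein, was at 9.58, 10.2 and 9.73 TPM at d0, 17.7, 19.3 and 18.1 TPM at d4 and 17.00, 17.6 and 18.2 TPM at d6 in Ctrl. In the KO, E2f7 was at 6.80, 7.39 and 7.48 TPM at d0, 15.8, 17.96 and 17.2 TPM at d4 and 14.6, 15.5 and 15.6 TPM at d6. It was lower at d0 (-0.40 ± 0.08, adjusted p = 0.000869), a call lost with only the groups compared (adjusted p = 0.0253) and with neighbour medians subtracted (-0.22, adjusted p = 0.0429). From d0 to d6 it rose in both genotypes (0.78 and 0.98), but the rise in Ctrl was 0.07 with quantile normalization (adjusted p = 0.422).

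The CDC25 phosphatases of the G2 to M step, Cdc25b and Cdc25c, were lower in KO at d4 and d6, beside 32.7% and 34.3% of all genes. Cdc25a, which acts earlier in the cycle, was not called. The Cdc25b call at d4 was lost with median-ratio scaling (-0.31, adjusted p = 0.0133) and quantile normalization (-0.28, adjusted p = 0.019). That of Cdc25c at d6 was lost with median-ratio scaling, with neighbour medians subtracted, with voom, and without KO d6 replicate 3. Cdc25b (ENSMUSG00000027330, chr2:131186949-131198497) was at 15.4, 16.2 and 18.9 TPM at d0, 38.00, 42.8 and 38.4 TPM at d4 and 59.9, 52.99 and 65.8 TPM at d6 in Ctrl. In the KO, Cdc25b was at 16.8, 14.7 and 16.6 TPM at d0, 29.2, 27.8 and 27.4 TPM at d4 and 31.6, 26.8 and 26.6 TPM at d6. The genotypes overlapped at d0 (-0.07 ± 0.10, adjusted p = 0.628), and both rose, leaving KO below at d4 (-0.48 ± 0.10, adjusted p = 0.000591) and at 47.6% of Ctrl at d6 (-1.04 ± 0.10, adjusted p = 1.48e-07). Cdc25c was at 62.6, 72.8 and 59.2 TPM at d0, 124, 108 and 114 TPM at d4 and 104, 101 and 98.3 TPM at d6 in Ctrl. In the KO, Cdc25c was at 56.8, 56.3 and 61.4 TPM at d0, 57.8, 67.8 and 60.6 TPM at d4 and 85.8, 79.4 and 69.3 TPM at d6. Ctrl rose from d0 to d4 (0.83, adjusted p = 3.35e-07) and KO did not pass (0.09, adjusted p = 0.386), leaving KO lower at d4 (-0.89 ± 0.09, adjusted p = 5.93e-07) and d6 (-0.37 ± 0.09, adjusted p = 0.00166). Cdc25a was at 79.6, 74.1 and 73.1 TPM at d0, 56.7, 58.5 and 54.9 TPM at d4 and 53.1, 61.4 and 58.96 TPM at d6 in Ctrl. In the KO, Cdc25a was at 74.8, 75.8 and 71.4 TPM at d0, 61.3, 60.3 and 61.3 TPM at d4 and 62.7, 65.3 and 64.8 TPM at d6. KO was above Ctrl in all libraries at d4 and d6 without passing (0.10 ± 0.06, adjusted p = 0.133 and 0.15 ± 0.06, adjusted p = 0.0284).

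The anaphase-promoting complex ends mitosis by marking cyclins for destruction. At d6 its activator was higher and 3 of its subunits were lower in KO, beside 17.9% of all genes higher and 34.3% lower. Cdc20 (ENSMUSG00000006398, chr4:118432901-118437352) encodes the activator. Cdc20 was at 352, 332 and 359 TPM at d0, 377, 407 and 365 TPM at d4 and 379, 386 and 379.9 TPM at d6 in Ctrl. In the KO, Cdc20 was at 384, 371 and 346 TPM at d0, 428, 414 and 458 TPM at d4 and 465, 534 and 588 TPM at d6. It was higher in KO at d6 (0.46 ± 0.07, adjusted p = 4.02e-05), above Ctrl at d4 without passing (0.18 ± 0.07, adjusted p = 0.0474), and overlapping at d0. The subunits Cdc16, Cdc23 and Cdc27 were all lower at d6 as deposited. With neighbour medians subtracted all of these calls were lost (-0.07, -0.11 and 0.01, adjusted p = 0.402, 0.0993 and 0.942). The Cdc23 call was also lost with median-ratio scaling (-0.14, adjusted p = 0.0265). Cdc16 was at 71.4, 77.1 and 64.5 TPM at d0, 136, 138 and 144 TPM at d4 and 111, 116 and 117 TPM at d6 in Ctrl. In the KO, Cdc16 was at 104, 106 and 105 TPM at d0, 134, 151 and 143 TPM at d4 and 87.97, 99.1 and 99.6 TPM at d6. It was higher at d0 (0.56 ± 0.07, adjusted p = 7.23e-06), overlapped at d4, and was lower at d6 (-0.26 ± 0.07, adjusted p = 0.00241), a call lost with median-ratio scaling (-0.10, adjusted p = 0.184).

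Of the other Cdc genes, which act in dephosphorylation, ubiquitin transfer, splicing and signalling, Cdc14b and Cdc34 were higher in KO at d4 and d6. Cdc14b was at 7.92, 7.39 and 8.07 TPM at d0, 18.8, 18.8 and 18.9 TPM at d4 and 19.5, 17.9 and 19.4 TPM at d6 in Ctrl. In the KO, Cdc14b was at 11.7, 13.5 and 10.98 TPM at d0, 22.7, 26.5 and 25.8 TPM at d4 and 35.2, 27.3 and 27.3 TPM at d6. KO was above all Ctrl libraries on each day (0.56 ± 0.10, adjusted p = 0.000437, 0.39 ± 0.10, adjusted p = 0.00452 and 0.62 ± 0.10, adjusted p = 6.98e-05). Cdc40 was lower at d0 (-0.28) and d4 (-0.28) and Cdc123 at d6 (-0.37), and Cdc37, Cdc42 and Cdc5l were called on no day.

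The 2 members brought in by their names held the largest single difference. Ccnb1ip1 (ENSMUSG00000071470, chr14:50789248-50807732) encodes a ubiquitin ligase known from meiotic recombination. Ccnb1ip1 was at 94.6, 83.3 and 86.3 TPM at d0, 43.7, 37.4 and 38.9 TPM at d4 and 10.6, 12.8 and 13.1 TPM at d6 in Ctrl. In the KO, Ccnb1ip1 was at 93.6, 97.8 and 98.2 TPM at d0, 63.7, 52.4 and 67.98 TPM at d4 and 44.3, 38.4 and 32.6 TPM at d6. It fell in both genotypes, but KO stayed above all Ctrl libraries at d4 (0.60 ± 0.11, adjusted p = 0.000329) and was 3.16 times Ctrl at d6 (1.58 ± 0.11, adjusted p = 6.57e-09). Cdkn2aip (ENSMUSG00000038069, chr8:47709344-47713932) encodes a partner of Arf. Cdkn2aip was at 28.6, 29.2 and 26.1 TPM at d0, 70.03, 65.7 and 63.98 TPM at d4 and 53.8, 48.6 and 46.2 TPM at d6 in Ctrl. In the KO, Cdkn2aip was at 46.1, 49.2 and 47.7 TPM at d0, 47.7, 49.8 and 43.7 TPM at d4 and 35.1, 28.03 and 31.5 TPM at d6. It was higher at d0 (0.75 ± 0.08, adjusted p = 4.53e-06) and lower at d4 (-0.49 ± 0.08, adjusted p = 0.000117) and d6 (-0.64 ± 0.08, adjusted p = 5.69e-06), the groups never overlapping.

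Leaving out 1 library at a time, with all others kept in the fit, ended some of these calls. At d0 they were Mcm7 (without Ctrl 1 or 2 or KO 1 or 2, adjusted p up to 0.0346), Cdc45 (without Ctrl 1, 2 or 3 or KO 1 or 3, adjusted p up to 0.0267), Pola1 (without Ctrl 3 or KO 2, adjusted p up to 0.0213), Pola2 (without Ctrl 1 or 3 or KO 2 or 3, adjusted p up to 0.0365), Pole4 (without Ctrl 2 or 3 or KO 1 or 3, adjusted p up to 0.0293), E2f1 (without Ctrl 3 or KO 3, adjusted p up to 0.0206), Cdc27 (without Ctrl 1 or 2 or KO 1 or 3, adjusted p up to 0.0267), Gins4 (15 of 18 libraries, adjusted p up to 0.0492) and Cdk17 (10 of 18 libraries, adjusted p up to 0.0435). At d4 they were Mcm8 (without Ctrl 2 or 3 or KO 2 or 3, adjusted p up to 0.0377), Rrm2 (without Ctrl 3 or KO 1 or 2, adjusted p up to 0.0308), Ccna1 (without KO 2 or 3, adjusted p up to 0.0138), Cdk13 (without Ctrl 2 or 3 or KO 1 or 2, adjusted p up to 0.0172), Cdk14 (without Ctrl 2 or 3 or KO 1 or 3, adjusted p up to 0.0213), Cdk18 (without Ctrl 1 or 3 or KO 1, 2 or 3, adjusted p up to 0.0265), E2f4 (without Ctrl 1 or KO 2 or 3, adjusted p up to 0.0149), E2f8 (without Ctrl 3 or KO 2, adjusted p up to 0.0166), Cdc14b (without Ctrl 1, 2 or 3 or KO 2 or 3, adjusted p up to 0.0223) and Ccnb2 (12 of 18 libraries, adjusted p up to 0.0498). At d6 they were Ccna2 (without Ctrl 1 or 2 or KO 1 or 3, adjusted p up to 0.0341), Cdk19 (without Ctrl 2 or 3 or KO 2 or 3, adjusted p up to 0.0229), Cdkn1b (without Ctrl 1 or KO 2 or 3, adjusted p up to 0.0224), E2f6 (without KO 1, adjusted p up to 0.0105), Cdc25c (without KO 3, adjusted p up to 0.0116), Cdc16 (without Ctrl 3 or KO 1, adjusted p up to 0.014), Mcm8 (8 of 18 libraries, adjusted p up to 0.0356) and Orc2 (12 of 18 libraries, adjusted p up to 0.0529). Libraries are named by their replicate number within the group of that day.

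Other ways of scaling ended further calls. With the median-ratio scaling, those of Mcm7, Cdc45, Pola2, Rrm2, Cdk17 and Cdc27 were lost at d0, those of Gins3, Ccna1, Ccnb2, Cdk13, Cdk14, Cdk16, E2f8, Cdc25b, Cdc27 and Cdc40 at d4, and those of Mcm6, Cdk16, Cdk19, Cdkn1b, E2f6, E2f8, Cdc25c, Cdc16 and Cdc23 at d6. All of these were lower calls, as that scaling raises KO relative to Ctrl. With quantile normalization the lost calls were those of Mcm7, Gins4, Cdc45, Pole4, Cdk17 and Cdc27 at d0, Rrm2, Ccna1, Cdk13, Cdk14, E2f4, E2f8 and Cdc25b at d4, and Cdk19, Cdkn1b, E2f8 and Cdc34 at d6. With neighbour medians subtracted, the d4 calls of Gins3 (-0.19), Ccna1 (-0.32), Ccnb2 (-0.02), Cdk13 (-0.16), Cdk14 (-0.34), Cdkn1b (-0.24), Cdc27 (0.00) and Cdc40 (-0.10) were lost. In that setting the d6 call of Cdc27 was lost as well and its value became 0.01 (adjusted p = 0.942), and the E2f3, E2f5, E2f6, Rfc3, Mcm9, Gins3, Cdc16, Cdc23, Cdc25c, Cdk19, Cdkn1b and Orc2 calls at d6 were lost without a change of sign, except for Cdkn1b.

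Genes around the machinery, from lists that were not chosen by name pattern, moved in several directions. As above, 27.0%, 45.5% and 52.3% of all genes were called at d0, d4 and d6, with medians of -0.07, -0.16 and -0.14, and nothing particular to a list is drawn from its counts. Of 30 replication partner genes in the table (clamp, primase, ligase, checkpoint mediators and histone chaperones among them), 2 were higher and 3 lower in KO at d0, 6 and 6 at d4, and 5 and 9 at d6, with median log2 fold changes of -0.09, 0.09 and -0.10. Named by the size of their d6 difference, the histone chaperone Asf1b (-0.78, adjusted p = 8.04e-08) and the nuclease Dna2 (-0.64, adjusted p = 9.82e-08) were the lowest, and Ung, which removes uracil (0.64, adjusted p = 1.09e-06) and Rif1, which times origin firing (0.55, adjusted p = 0.000111) the highest. From d0 to d6, 21 of the 30 fell in Ctrl and 20 in KO (medians -0.38 and -0.38). Of all genes, 25.8% fell in Ctrl and 27.4% in KO over these days (medians 0.26 and 0.17). Of 35 mitosis genes, 3 were higher and 3 lower at d0, 4 and 5 at d4, and 8 and 3 at d6 (medians 0.03, -0.06 and -0.01). Mybl2, a partner in transcription of mitosis genes, was at 87.8 ± 0.45 TPM (SD, n = 3) in Ctrl and 223 ± 20.5 TPM in KO at d6 (1.33, adjusted p = 2.66e-10), and Foxm1, which drives the same genes, was at 82.6 ± 1.83 and 53.6 ± 6.81 TPM (-0.62, adjusted p = 1.85e-05). Pttg1, the securin, was higher (0.72, adjusted p = 4.35e-08) and Spc24, of the kinetochore, lower (-0.43, adjusted p = 0.00436).

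Regulators of the G1 to S step held large differences in single genes. Of 23 listed genes in the table, 1 was higher and 8 lower at d0, 7 and 7 at d4, and 4 and 10 at d6 (medians -0.14, -0.05 and -0.09, beside -0.07, -0.16 and -0.14 for all genes). Cyclin D2 (Ccnd2) was at 172 ± 38.2 TPM in Ctrl and 13.3 ± 3.39 TPM in KO at d4, and at 199.5 ± 6.87 and 6.43 ± 3.31 TPM at d6 (-4.84, adjusted p = 7.4e-11), whereas cyclin D1 (Ccnd1) was at 69.7 ± 4.03 and 152 ± 14.7 TPM at d6 (1.11, adjusted p = 2.07e-06). The inhibitor Cdkn1c, p57, was at 149 ± 7.84 TPM in Ctrl and 37.1 ± 7.61 TPM in KO at d6 (-2.0, adjusted p = 8.18e-09). Chek2, a kinase of the DNA damage checkpoint, was higher (0.72, adjusted p = 3.1e-05).

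The listed targets of p53, a list without Cdkn1a, itself a known target, were counted in the same way. All genes were higher and lower in 10.6% and 16.4% of cases at d0, 12.7% and 32.7% at d4, and 17.9% and 34.3% at d6. Of 25 in the table, 3 were higher and 10 lower at d0 (median -0.25), 14 higher and 2 lower at d4 (median 0.29), and 11 higher and 2 lower at d6 (median 0.04), the medians of all genes being -0.07, -0.16 and -0.14. Pmaip1, the cell death gene Noxa, was at 107 ± 17.5 TPM in Ctrl and 492 ± 14.0 TPM in KO at d6 (2.20, adjusted p = 9.68e-10). Gdf15, a stress-induced factor, was at 2.31 ± 0.31 and 5.30 ± 1.05 TPM (0.92, adjusted p = 0.00125). Sesn1 (-0.48, adjusted p = 0.000114) and Ercc5 (-0.40, adjusted p = 0.000872) were the lowest. These p-values are from the same limma fit over all genes.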

How the data were processed

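RNA from 18 mouse ESC-derived samples was sequenced by the study as 36 bp single reads, which the authors aligned to GRCm38 (mm10) with TopHat2 2.0.13 and counted per gene with featureCounts 1.4.6, per the methods and the submitters' processing notes. The deposited table holds TPM values, which the authors computed per gene and filtered to genes with at least 5 TPM in at least 3 libraries, dropping the 20% least variable. Another 3 deposited columns (variance, SD and variability over all libraries) were not used. Repeated entries (81 of 11046) were collapsed, leaving 10965 genes. Whole reads per gene were recovered from the TPM steps to a tolerance of 1e-06, and were used to give the depth and the input of voom, an alternative.

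Values were tested as log2(TPM + 1) with limma 3.58.1 (R 4.3.3; empirical Bayes with an intensity trend), 1 mean for each of the 6 groups, p-values adjusted by the Benjamini-Hochberg method across the table and called below 0.01. The fit was also run on simulated reads with changes set in a small part of the genes of 1 group. In these data far more genes differed, so that run cannot speak for calls that depend on scaling. The members and gene lists were chosen with earlier results of these data known, so no p is given for a list. Values in every library are given for the 5 called members with the largest rise and the 5 with the largest fall between KO and Ctrl on each day, for the 3 largest changes each way from d0 to d6 in each genotype, and for members named for their role. Gins3, Gins2, Rrm1, Ccnb2 and others are named in their families only. Listed genes outside the rule were named by their d6 difference, 2 each way in a list. Groups were taken from the sample labels. Alternatives were pseudocounts of 0.1 and 5, a mean of at least 10 TPM, median-ratio and quantile scaling, voom on recovered reads, subtraction of the median of at least 20 genes within 10 Mb, no trend, only the groups compared, a replicate block, and leaving out each library. Tables and plots were made with Python 3.11.15, numpy 2.4.6, pandas 2.3.3 and matplotlib 3.10.9.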

Additional observations from a re-analysis of the deposited data

Results flagged for a closer look

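The members below, of those with values given in every library, changed differently over the days in KO and in Ctrl by the limma F test of the interaction terms. Each value is the change from d0 to the named day in KO minus that in Ctrl, on the log2(TPM + 1) scale, with the adjusted p of the F test. Among replication genes, those that gained on Ctrl were Orc1 (0.52 to d6, adjusted p = 0.000975), Gins1 (0.43 to d4, adjusted p = 0.00122), Pold2 (0.90 to d6, adjusted p = 1.56e-06) and Rrm2 (0.46 to d4, adjusted p = 1.71e-05). Replication genes that lost against Ctrl were Mcm6 (-0.30 to d6, adjusted p = 0.00145), Pola1 (-0.42 to d6, adjusted p = 0.00901), Pole3 (-0.94 to d6, adjusted p = 1.39e-07) and Pole4 (-0.69 to d4, adjusted p = 0.00149). Of the cyclins and CDKs, the gains were those of Ccne1 (0.74 to d4, adjusted p = 9.9e-07), Cdk17 (0.80 to d6, adjusted p = 2.07e-05) and Cdk18 (1.30 to d6, adjusted p = 0.000118). The losses among cyclins and CDKs were those of Ccna1 (-1.37 to d4, adjusted p = 5.13e-05), Cdk4 (-0.41 to d6, adjusted p = 3.19e-05), Cdk10 (-1.13 to d4, adjusted p = 8.84e-06) and Cdk19 (-0.86 to d4, adjusted p = 0.00392). Regulators with a gain were Cdkn1a (0.75 to d4, adjusted p = 0.000679), Cdc20 (0.39 to d6, adjusted p = 0.0098) and Ccnb1ip1 (1.45 to d6, adjusted p = 4.76e-06). Regulators with a loss were Cdkn1b (-0.91 to d4, adjusted p = 2.45e-07), Cdkn2a (-0.99 to d4, adjusted p = 0.000106), E2f2 (-0.82 to d6, adjusted p = 0.000195), Cdc25b (-0.98 to d6, adjusted p = 6.62e-05), Cdc25c (-0.74 to d4, adjusted p = 0.000291), Cdc16 (-0.83 to d6, adjusted p = 5.66e-06) and Cdkn2aip (-1.39 to d6, adjusted p = 1.07e-07). Ccna1, Cdkn1b, Cdc16 and Cdkn2aip were called higher in KO at d0 and lower on a later day, and Pold2, Rrm2, Ccne1 and Cdk17 the reverse. For Cdk10, Cdc16, Cdkn1b, Cdkn2aip and Pole4 the d0 difference lies on chromosomes 6 and 8, where neighbouring genes were higher in KO at d0, as given above; the part of that in the changed course was not tested.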

How the results depend on the processing

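The balance of higher and lower calls depended on scaling. With median-ratio scaling and with neighbour medians subtracted, the members higher in KO at d4 numbered 30 and 30 (26 with voom), those lower at d0 6 and 3 (5 with only the groups compared), those lower at d4 7 and 9, and those lower at d6 16 and 13. Under the same pair of settings, 19 and 19 members were higher and 40 and 40 lower in Ctrl at d4 than at d0, 34 and 28 lower in KO at d4 than at d0, and 12 and 15 higher in KO at d6 compared with d0. With median-ratio scaling 15 were higher in KO at d4 than at d0. With voom 17 were higher in Ctrl at d6 than at d4. Higher in KO at d6 than at d4 were 2 with only the groups compared, 4 with neighbour medians subtracted and 11 with voom, and lower were 19 with only the groups compared. The cause was not tested. Leaving out single libraries gave 7 to 12 lower at d0 (7 without Ctrl d0 replicate 1 or KO d0 replicate 3) and 4 to 7 higher in KO at d6 than at d4 (4 without KO d4 replicate 1 or 3 or KO d6 replicate 1 or 2), and moved no other count by over 1.5 times.

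Of the members called between KO and Ctrl, 7 of 25 at d0, 18 of 34 at d4 and 24 of 43 at d6 were called under every alternative. Mcm5 and Gins4 at d0 and Cdkn1b and Cdc27 at d6 changed sign with neighbour medians subtracted. The course test with only the groups compared was not run. Low counts limit Cdk14 and Ccna1, with 5 and 8 reads in their lowest library.

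Same-numbered replicates were not shown to be pairs: over 45 pairs of groups and numbers, the correlation of deviations ran from -0.093 to 0.336, and 28 of 45 were over 0.1. With the replicate block, 12 and 10 members were higher and lower at d0, 17 and 17 at d4, 17 and 25 at d6, and 41 differed in course. The block ended the calls of Mcm7 (adjusted p = 0.0108), Cdc45 (0.011) and Gins4 (0.0121) at d0, Ccnb2 (0.0132) at d4 and Orc2 (0.0101) at d6, and no other call between KO and Ctrl.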
